A study of Rattus rattus with 18 samples.

Results

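The let-7 microRNA family was measured in rat brain after transient middle cerebral artery occlusion (tMCAO). The family was taken as 8 named probes of the array: rno-let-7a-5p, let-7b-5p, let-7c-5p, let-7d-5p, let-7e-5p, let-7f-5p, let-7i-5p and miR-98-5p. These were 8 of the 761 rat miRNA probes, and all 8 were found in the files. They were listed by name under a rule that uses no measured value, and the list was drawn up with earlier results of these data known. The probe of let-7g-5p carries the same seed, was not on the list and is given only where it helps in reading the others.

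The tissue came from male Sprague Dawley rats in 3 groups of 3: sham-operated, tMCAO, and a group labelled remote limb postconditioning (PostC). A core and a peri sample were taken from each rat, which gave 18 arrays of single-colour Cy5 hybridisation of total RNA. The labels do not say whether the PostC rats had also undergone occlusion, and they name no genetic modification, age or time after surgery for any group. Occlusion was made with an intraluminal filament, according to the methods. The labels assign core to temporo-parietal cortex and peri to striatum, whereas the methods describe the core as striatum, so the regions are called only core and peri here.

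MicroRNAs of the let-7 family are cut from hairpin precursors whose maturation the RNA-binding protein LIN28 blocks in early development. They accumulate as cells differentiate, are abundant in the mature brain, and repress messages such as those of RAS, MYC and HMGA2 through a seed shared by the whole family. In mammals several members are transcribed together with other miRNAs: let-7c with miR-99a, let-7e with miR-99b and miR-125a, and miR-98 with a copy of let-7f.

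The members differ from each other by a few bases, which is why their sequences are shown. Each target is given 5′ to 3′ as printed in the array files, with the seed (bases 2 to 8) in capitals.
rno-let-7a-5p: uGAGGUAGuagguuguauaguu
rno-let-7b-5p: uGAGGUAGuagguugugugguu
rno-let-7c-5p: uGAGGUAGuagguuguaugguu
rno-let-7d-5p: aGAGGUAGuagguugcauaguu
rno-let-7e-5p: uGAGGUAGgagguuguauaguu
rno-let-7f-5p: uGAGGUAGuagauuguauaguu
rno-let-7i-5p: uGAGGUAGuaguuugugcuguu
rno-miR-98-5p: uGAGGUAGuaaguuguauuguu
All 8 targets were 22 bases long and carried one seed, as did 9 probes of the array in all, the ninth being let-7g-5p. Counted from the 5′ end, let-7c-5p differed from let-7a-5p by A19G, let-7e-5p by U9G and let-7f-5p by G12A. let-7b-5p carried A17G and A19G, let-7d-5p carried U1A and U16C, miR-98-5p carried G11A and A19U, and let-7i-5p had 4 changes, G12U among them. Of the pairs among the 8 members, 4 differed by 1 base and 7 by 2. Every probe outside the family with a target of 22 bases differed from each member by 10 or more bases, compared position by position without shifts. Probes of other lengths were not compared. How far a probe of one member also binds its neighbours was not measured on these arrays, so each value below is that of a probe. GC content of the members ran from 31.8% for let-7f-5p and miR-98-5p to 45.5% for let-7b-5p, against a median of 50% over the 532 probes tested.

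Detection on an array required the median of a probe's 4 spots to lie 3 scaled median absolute deviations above the empty-spot median, and the tests took probes with 3 or more such arrays. All 8 members passed, and 7 of them were detected on all 18 arrays, as were 141 probes of the array. miR-98-5p was missing on 3 arrays, tMCAO peri of rat 1, PostC core of rat 1 and PostC peri of rat 3. Arrays of one group correlated with each other at r = 0.83 to 0.98 over the tested probes. Neuron-linked miRNAs, the check on the brain label, were detected on all 18 arrays for 6 of 6 probes.

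One array stood apart, the core array of sham rat 2. One of its 4 let-7a-5p spots read 35.2, and the others read 8544, 8696 and 8080. The SD of the 4 log2 spots was 3.95 there, and at most 0.430 for every other combination of an array with a member or let-7g-5p. On the same array the spike-in control a-PUC2MM2d of the deposited table reached 71.5% of its partner a-PUC2PM, against 0.108% to 2.13% on the other 17 arrays. The files name these controls without sequences, and their part in the values of the members was not tested. For the members, comparisons with sham are therefore also given without sham rat 2, or from the median of the 4 spots. This was done where it changed a direction or a call or moved a value that the text turns on. For the other miRNAs named below, comparisons with sham are given only with sham rat 2 included. Whether their calls hold without that rat is not shown.

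**Figure D1:**
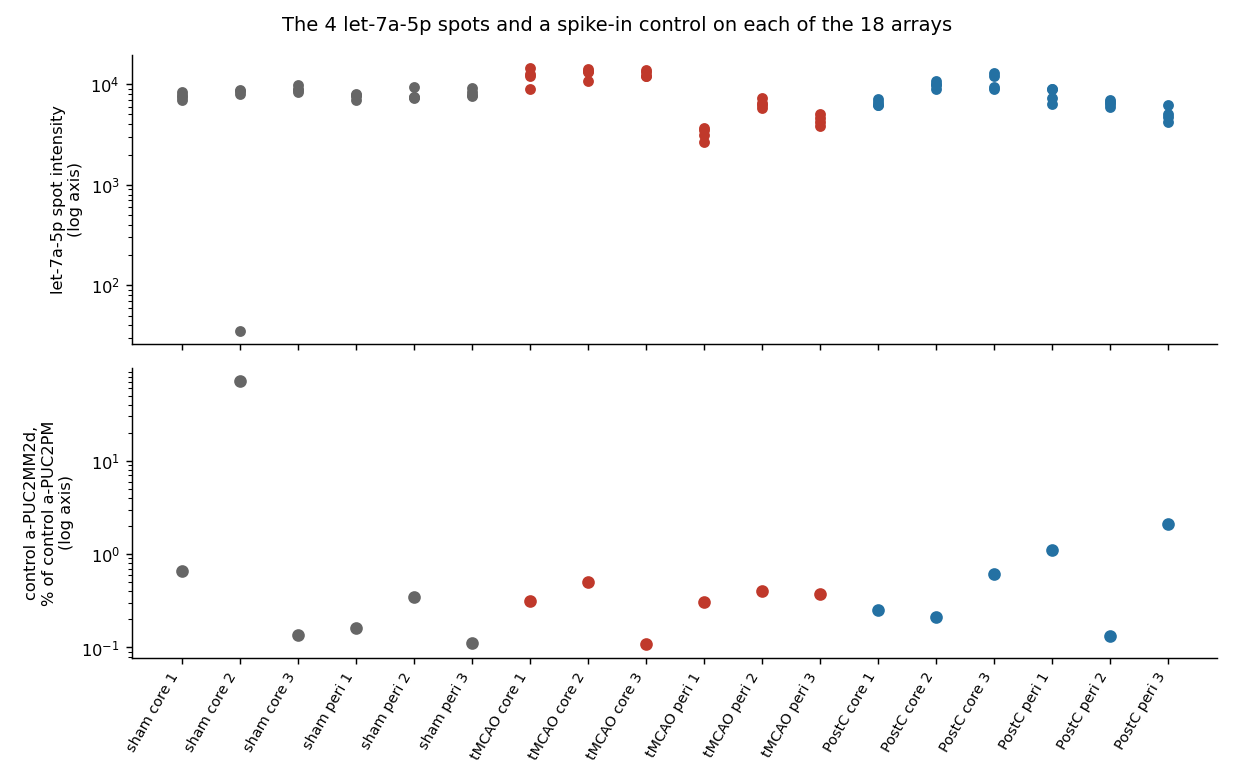
Upper panel, intensity of each of the 4 let-7a-5p spots on every array (log axis). Lower panel, the spike-in control a-PUC2MM2d as a percent of a-PUC2PM in the deposited table (log axis), with arrays on the x axis coloured grey for sham, red for tMCAO and blue for PostC. The core array of sham rat 2 holds the single dim let-7a-5p spot of 35.2 and the control at 71.5%.

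The first comparison asked how the family differed between tMCAO and sham rats over the whole dissected area, with the mean of core and peri as the value of each rat. In tMCAO rats 2 members of 8 passed the test, let-7c-5p and its neighbour in sequence let-7b-5p, both of them higher. The log2 fold change of let-7b-5p was 0.79 (SE 0.18, adjusted p = 0.0209), or 1.73-fold, and that of let-7c-5p was 0.71 (SE 0.18, adjusted p = 0.0322), or 1.64-fold. Over all 532 probes 11.8% passed in either direction and 4.51% were higher. let-7e-5p had a log2 fold change of similar size that did not pass (0.81, SE 0.26, adjusted p = 0.0693). let-7a-5p, which did not pass either, had 0.72 (SE 0.25, adjusted p = 0.0776), and this value rested on the dim spot. It was 0.45 (adjusted p = 0.102) with the median of the spots and 0.43 (adjusted p = 0.171) without sham rat 2. In bulk tissue, a changed number of cells of a type and a changed amount of RNA per cell cannot be told apart.

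The other members gave log2 fold changes of 0.48 for let-7d-5p (95% CI -0.0038 to 0.96), 0.18 for let-7i-5p (-0.23 to 0.59), -0.055 for let-7f-5p (-0.54 to 0.43) and -0.46 for miR-98-5p (-1.17 to 0.26). let-7g-5p, off the list, had -0.11 (-0.60 to 0.38). The rat means of tMCAO lay wholly above those of sham for 5 members, let-7a-5p to let-7e-5p, and the same was true of 17.7% of all probes. The median log2 fold change was 0.60 over the 8 members and -0.018 over all probes. At an unadjusted p below 0.05, limma gave 4 members and 31.4% of probes. Under other settings let-7b-5p did not pass with median scaling of each array (0.43, adjusted p = 0.186), plain background subtraction (0.65, adjusted p = 0.205), the methods' t-test (adjusted p = 0.0855) or the rat number as a block (adjusted p = 0.0529). let-7c-5p did not pass under any of these either, with 0.41 (adjusted p = 0.224) under median scaling and adjusted p = 0.0617 with the block. Median scaling lowered the value of every member, let-7a-5p to 0.36, let-7d-5p to 0.092 and let-7e-5p to 0.29. Both calls were lost without tMCAO rat 1, tMCAO rat 2 or sham rat 1, where let-7b-5p had 0.73 (adjusted p = 0.0826), 0.75 (adjusted p = 0.0998) and 0.78 (adjusted p = 0.0619). Without sham rat 2 let-7b-5p had 0.70 (adjusted p = 0.0571) and let-7c-5p 0.59 (adjusted p = 0.0734), and let-7e-5p alone passed at 1.01 (adjusted p = 0.0475). Leaving out that rat also moved let-7i-5p to 0.35, miR-98-5p to -0.075 and let-7f-5p to 0.051, none of which passed, and the median over the 8 members to 0.49.

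In the core let-7b-5p was the 1 member that passed. Its normalized log2 intensity was 12.35, 12.41 and 12.82 in the core of sham rats 1 to 3 and 13.62, 13.77 and 13.46 in the core of tMCAO rats 1 to 3. The groups did not overlap, and the difference was 1.09 (SE 0.23, adjusted p = 0.0354), or 2.13-fold. In the authors' normalized table the same probe went from 6308 ± 1578 (SD, n = 3) in sham core to 12484 ± 836 (SD, n = 3) in tMCAO core. On that table the log2 difference was 1.01 and the call was lost (adjusted p = 0.0530), as it was under 8 other settings. Of all probes 3.38% passed in the core and 1.69% were higher. The call was lost without any 1 of the 6 rats, with log2 fold changes of 1.00 to 1.24 and adjusted p from 0.0516 to 0.168, and without sham rat 2 the log2 fold change was 1.03 (adjusted p = 0.0983).

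let-7c-5p differs from let-7b-5p by a single base, and its core values moved in the same way. They were 12.95, 12.65 and 13.30 in sham rats and 13.93, 14.01 and 13.93 in tMCAO rats. All tMCAO values were above all sham values, with a log2 difference of 0.99 (SE 0.24, adjusted p = 0.0543) that fell just short of the threshold, and of 0.83 (adjusted p = 0.156) without sham rat 2. Over the 18 arrays the log2 intensities of this pair correlated at r = 0.96, the highest of the 28 pairs, as a description of probes that share arrays, groups and most of their sequence.

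let-7a-5p had the largest core difference, which turned on 1 spot. Its core values were 12.74, 11.24 and 13.00 in sham rats and 13.61, 13.40 and 13.59 in tMCAO rats. The log2 fold change was 1.21 (SE 0.40, adjusted p = 0.135), and the low sham value was that of the array with the dim spot. Taken spot by spot, the position with the dim spot gave 3.11 and the other 3 positions gave 0.62, 0.65 and 0.46. With the median of the spots the core difference was 0.64 (adjusted p = 0.105), and without sham rat 2 it was 0.67 (adjusted p = 0.217). By contrast the 4 spot positions of let-7b-5p gave 0.98 to 1.15 and those of let-7c-5p 0.93 to 1.04.

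let-7d-5p read 12.28, 12.76 and 12.53 in sham core and 13.30, 13.14 and 13.11 in tMCAO core, without overlap. Its log2 fold change of 0.66 (SE 0.26, adjusted p = 0.173) did not pass, nor did the 0.78 (adjusted p = 0.262) found without sham rat 2. let-7e-5p read 11.10, 12.35 and 10.99 in sham core and 11.99, 12.50 and 12.15 in tMCAO core. The groups overlapped through sham rat 2 alone, whose let-7e-5p was more than 1 log2 unit above both other sham core arrays. Its log2 fold change was 0.73 (SE 0.42, adjusted p = 0.315), and 1.17 (adjusted p = 0.217) without sham rat 2.

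let-7f-5p, let-7i-5p and miR-98-5p gave core differences near or below 0. let-7f-5p read 12.48, 13.05 and 12.53 in sham core and 12.88, 12.05 and 13.12 in tMCAO core, a log2 difference of -0.0067 (95% CI -0.71 to 0.69). let-7i-5p ran from 12.93 to 13.62 in sham core and from 12.92 to 13.44 in tMCAO core, a difference of -0.053 (95% CI -0.61 to 0.50). miR-98-5p, the member nearest to the detection limit, read 9.39, 11.82 and 10.22 in sham core and 10.24, 8.92 and 10.19 in tMCAO core. Its highest sham value was again that of rat 2, and the difference moved from -0.69 (SE 0.75, adjusted p = 0.578) to -0.018 without that rat. let-7f-5p and let-7i-5p moved to 0.17 and 0.16 without it, neither past the threshold. In all 4 members had core groups that did not overlap, all higher in tMCAO, against 16.7% of all probes, and 4 members had an unadjusted p below 0.05 with limma, against 21.8% of probes. The median log2 fold change in the core was 0.70 over the 8 members and -0.055 over all probes.

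**Figure D2:**
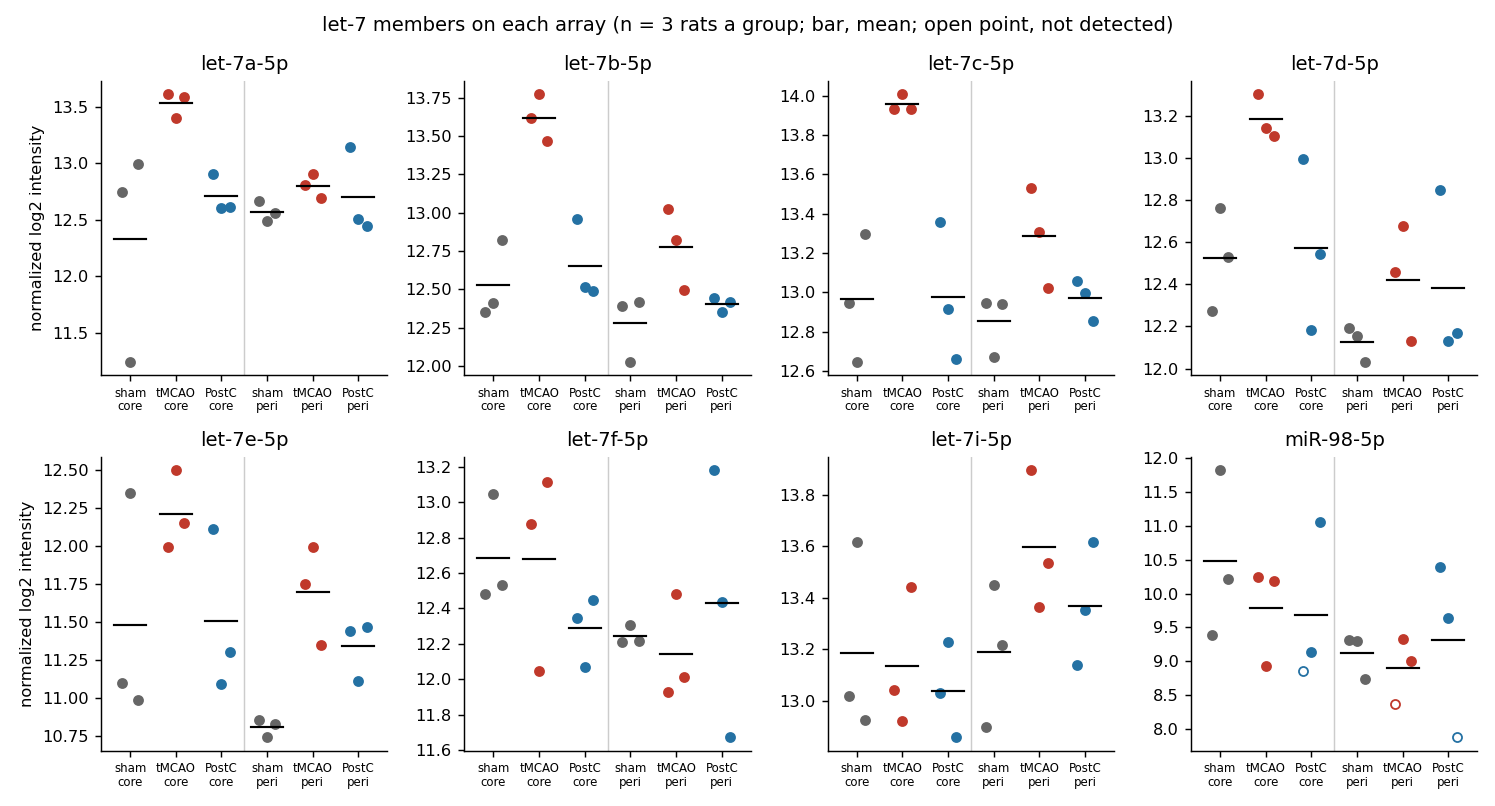
Normalized log2 intensity of each member on every array, by region and group, with 1 point per rat, a bar for the mean of 3 rats and an open point where the probe was not detected; the scale of the y axis differs between panels. The tMCAO core arrays of let-7a-5p to let-7d-5p lie above both other core groups, with let-7b-5p between 13.46 and 13.77, whereas the tMCAO arrays of let-7f-5p, let-7i-5p and miR-98-5p overlap those of sham in both regions.

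In the peri samples no member passed the test, and 0.564% of probes did, all higher in tMCAO. With limma 1 member, let-7e-5p, had an unadjusted p below 0.05, as did 15.2% of probes. Its peri difference was the largest, with 10.86, 10.74 and 10.83 in sham rats and 11.75, 11.99 and 11.35 in tMCAO rats. These groups did not overlap and differed by 0.89 on the log2 scale (SE 0.30, adjusted p = 0.186), or 1.85-fold. let-7b-5p read 12.39, 12.03 and 12.42 in sham peri and 13.02, 12.82 and 12.49 in tMCAO peri, a difference of 0.50 (SE 0.26, adjusted p = 0.371). let-7c-5p gave 0.43 (SE 0.23, adjusted p = 0.400) and let-7a-5p 0.23 (SE 0.26, adjusted p = 0.692), in both cases with every tMCAO value above every sham value.

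Non-overlapping peri groups, all higher in tMCAO, were thus found for 4 of 8 members, against 15.6% of all probes. The median was 0.35 over the members and -0.015 over all probes. Scaling each array to one median, in place of cyclic loess, turned the peri differences of let-7a-5p to let-7e-5p and of let-7i-5p negative, from -0.62 to -0.13. That scaling also moved the median of all probes in the peri comparison to -0.42. The number of probes detected per array differed as well, from 318 to 471 in sham peri and from 189 to 230 in tMCAO peri, and its part in these values was not tested.

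Whether the change in the core exceeded that in the peri samples was tested within rats. No member passed, and the share of all probes that passed was 0%. The core change minus the peri change was 0.98 for let-7a-5p (SE 0.44, adjusted p = 0.558), 0.59 for let-7b-5p (SE 0.35, adjusted p = 0.655) and 0.56 for let-7c-5p (SE 0.32, adjusted p = 0.652). With limma no member had an unadjusted p below 0.05, where 8.65% of probes did. For let-7a-5p the difference was 0.39 with the median of the spots and 0.48 without sham rat 2, and without that rat let-7e-5p turned from -0.15 to 0.32 and miR-98-5p from -0.47 to 0.11. Median scaling gave larger values that did not pass, 1.97 for let-7a-5p (adjusted p = 0.120), 1.58 for let-7b-5p (adjusted p = 0.183) and 1.54 for let-7c-5p (adjusted p = 0.200), with the median of all probes at 0.24.

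The within-rat difference between core and peri also passed for no member in any group. In tMCAO rats the core was above the peri sample in all 3 rats for 5 members, let-7a-5p to let-7e-5p, against 19% of probes. In every sham rat this also held for let-7d-5p, let-7e-5p, let-7f-5p and miR-98-5p, and in every PostC rat for let-7b-5p and let-7d-5p. The median difference over the members was 0.32 in sham, 0.70 in tMCAO and 0.087 in PostC rats, against 0.019, -0.032 and 0.049 over all probes. Without sham rat 2 the sham median was 0.23. The lowest p in tMCAO rats was that of let-7b-5p, with a difference of 0.84 (SE 0.25, adjusted p = 0.275), followed by let-7d-5p at 0.76 (SE 0.25, adjusted p = 0.275), let-7a-5p at 0.74 and let-7c-5p at 0.67. With median scaling these differences were 1.58 for let-7b-5p (adjusted p = 0.0809), 1.49 for let-7d-5p (adjusted p = 0.0658), 1.47 for let-7a-5p and 1.42 for let-7c-5p, again short of the threshold, with the median of all probes at 0.11. let-7i-5p went the other way, with the peri sample above the core in all 3 tMCAO rats and a difference of -0.46 (SE 0.22, adjusted p = 0.502), where 24.6% of probes did so, and a difference of 0.29 with median scaling. Its peri sample was also above the core in every PostC rat, with a difference of -0.33 (SE 0.22, adjusted p = 0.571). let-7b-5p differed by 0.25 in sham and by 0.25 in PostC rats, and let-7a-5p by 0.012 in PostC rats. In sham rats 1 to 3 the core of let-7a-5p minus its peri value was 0.076, -1.24 and 0.43. The mean of -0.25 took its sign from the dim spot, and it was 0.25 without sham rat 2 and 0.36 with the median of the spots. The shares of probes with an adjusted p below 0.05 were 0% in sham, 0.94% in tMCAO and 0% in PostC rats. At an unadjusted p below 0.05, limma gave 0 members in sham (5.45% of probes), 4 in tMCAO (10.9%) and 0 in PostC rats (9.77%).

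**Figure D3:**
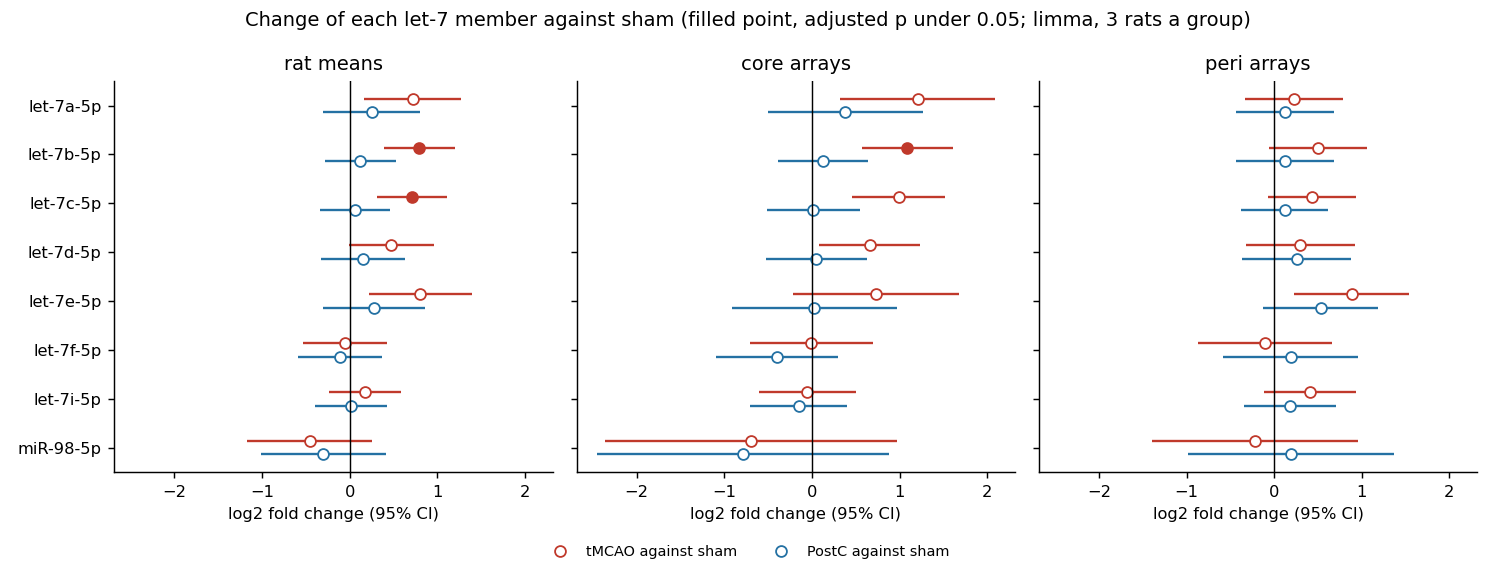
Log2 fold change of each member against sham (x axis) with its 95% confidence interval from limma, for tMCAO in red and PostC in blue, over rat means, core and peri arrays; filled points passed an adjusted p of 0.05. The filled points are let-7b-5p and let-7c-5p over rat means and let-7b-5p in the core, and every PostC interval includes 0.

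PostC rats did not differ detectably from sham in any member. Over rat means the log2 fold changes ran from -0.30 for miR-98-5p to 0.28 for let-7e-5p, with a median of 0.095 over the members and 0.038 over all probes. No member passed, and 0.188% of probes did. let-7b-5p differed by 0.12 (95% CI -0.28 to 0.53) and let-7c-5p by 0.066 (95% CI -0.34 to 0.47). In the core the members ran from -0.79 to 0.38 and in the peri samples from 0.12 to 0.53, with 0% of probes passing in either region. The peri values of let-7e-5p, 11.44, 11.11 and 11.47, lay above the 3 sham values, as did the PostC values of 3.38% of probes. In the core let-7f-5p, with 12.35, 12.07 and 12.45, lay below the 3 sham values, as did 11.1% of probes. With limma no member had an unadjusted p below 0.05 in these 3 comparisons, where 14.1%, 16.9% and 2.63% of probes did over rat means, core and peri. Without sham rat 2 the members ran from -0.057 to 0.48 over rat means, from -0.22 to 0.46 in the core and from -0.0027 to 0.50 in peri, again with 0 below that p. Without that rat 3 members turned sign over rat means, let-7a-5p from 0.25 to -0.039, let-7c-5p from 0.066 to -0.057 and miR-98-5p from -0.30 to 0.079. In the core let-7a-5p turned from 0.38 to -0.16, let-7c-5p from 0.014 to -0.14 and let-7i-5p from -0.15 to 0.066, and miR-98-5p went from -0.79 to -0.12. In peri let-7b-5p turned from 0.12 to -0.0027.

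Set directly against tMCAO, the PostC rats had lower let-7 values in the core, short of the threshold. All 8 members had a negative log2 fold change there, with a median of -0.66 against 0.0095 over all probes, of which 51.1% were above 0. The sign of 2 members depended on the setting: let-7i-5p was 0.0042 with loess by pairs of arrays and 0.056 without tMCAO rat 3, and miR-98-5p was 0.033 with median scaling and up to 0.31 with 1 rat left out. let-7c-5p (-0.98, SE 0.24, adjusted p = 0.0589) and let-7b-5p (-0.97, SE 0.23, adjusted p = 0.0589) came closest. In the core of PostC rats 1 to 3 let-7b-5p read 12.96, 12.52 and 12.49, and let-7c-5p read 13.36, 12.92 and 12.66, all below the lowest tMCAO core value of the same probe. Core groups that did not overlap, all lower in PostC, were found for 4 members, let-7a-5p to let-7d-5p, against 6.58% of probes. No member passed, and 2.26% of probes did, while 3 members and 13.3% of probes had an unadjusted p below 0.05 with limma. With the median of the spots let-7a-5p passed at -0.87 (adjusted p = 0.0447).

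Over rat means let-7b-5p was 0.67 lower on the log2 scale in PostC than in tMCAO rats (SE 0.18, adjusted p = 0.0608) and let-7c-5p 0.65 lower (SE 0.18, adjusted p = 0.0635). No member passed, where 5.64% of probes did, and 2 members and 18.4% of probes had an unadjusted p below 0.05 with limma. For 3 members, the a, b and c forms of let-7, every PostC rat mean was below every tMCAO rat mean, as for 7.52% of probes. In the peri samples the differences ran from -0.38 to 0.41 and the share of probes that passed was 0%. With limma no member had an unadjusted p below 0.05 there, where 5.83% of probes did, and let-7b-5p alone did not overlap, lower in PostC, as 4.7% of probes were. The tMCAO rats enter this comparison and the one with sham, so the values of both are given side by side and not counted as separate support.

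The order of the 6 groups differed between members. tMCAO core ranked highest for let-7a-5p, let-7b-5p, let-7c-5p, let-7d-5p and let-7e-5p, with mean log2 intensities of 13.54, 13.62, 13.96, 13.18 and 12.21, each compared only within its own probe. It stood clear of the next group, without overlap, for the first 4 of these, by 0.74, 0.84, 0.67 and 0.61. Below it the neighbouring groups overlapped for these 4 members at every step, and the last place of sham core for let-7a-5p included the dim spot. For let-7e-5p only the lowest group, sham peri at 10.81 ± 0.061 (SD, n = 3), was separate from its neighbour, PostC peri at 11.34 ± 0.20. For let-7f-5p, let-7i-5p and miR-98-5p all neighbouring groups overlapped.

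The 5 members with higher rat means in every tMCAO rat shared a sequence feature that the list did not use. let-7a-5p to let-7e-5p all have G at both base 11 and base 12, whereas let-7f-5p (G12A), let-7i-5p (G12U) and miR-98-5p (G11A) do not, nor does let-7g-5p (G12U). Over rat means the log2 fold changes ran from 0.48 to 0.81 in the first 5 and from -0.46 to 0.18 in the other 3, and in the core from 0.66 to 1.21 and from -0.69 to -0.0067. Both core extremes rested on sham rat 2, and without it the ranges were 0.67 to 1.17 and -0.018 to 0.17 in the core, and 0.43 to 1.01 and -0.075 to 0.35 over rat means. In the peri samples the ranges overlapped, from 0.23 to 0.89 and from -0.22 to 0.41. This grouping was chosen after the values were seen, so no test was made of it. GC content ran from 36.4% to 45.5% in the first group and from 31.8% to 40.9% in the second. After each array's trend on GC content was removed, let-7f-5p had 0.32 over rat means and 0.62 in the core, and let-7b-5p 0.88 and 1.24. With sham rat 2 included, these values ran from 0.66 to 0.997 in the first 5 and from -0.082 to 0.36 in the other 3 over rat means. In the core they ran from 0.97 to 1.68 and from -0.064 to 0.62, and in the peri samples the ranges overlapped.

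Ratios between members on one array do not depend on how arrays are scaled to each other. The 7 pairs were chosen with the values above known, mostly as a member that was higher over one that was not, so their ratios are a description. Of 21 ratios, 7 pairs over rat means, core and peri, 16 did not overlap between sham and tMCAO and 5 did. That count was largely set by the choice of pairs, and no share over other pairs of probes was computed. The ratios are also not separate, since rat means hold the core and peri values and let-7f-5p recurs among the pairs. Taken from the spot medians before any normalization, the log2 ratio of let-7b-5p to let-7f-5p was -0.099 ± 0.38 (SD, n = 3) in sham rat means and 0.82 ± 0.36 (SD, n = 3) in tMCAO rat means. The highest sham value was 0.20 and the lowest tMCAO value 0.41. The difference of 0.92 became 0.71 without sham rat 2. In the peri samples, where the scaling decided the direction of single members, the same ratio was -0.032 ± 0.33 in sham and 0.69 ± 0.51 in tMCAO, again without overlap.

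The log2 ratio of let-7e-5p to let-7f-5p separated the peri groups more widely, with -1.41 ± 0.12 (SD, n = 3) in sham and -0.51 ± 0.20 (SD, n = 3) in tMCAO. In the core it overlapped, with the sham array of rat 2 at -0.69 inside the tMCAO range of -1.01 to 0.28. let-7c-5p over let-7a-5p, 2 probes that differ by 1 base, had a log2 ratio of 0.15 ± 0.23 in sham and 0.49 ± 0.11 in tMCAO rat means. The highest sham value was 0.34 and the lowest tMCAO value 0.36, and without sham rat 2 the difference fell from 0.33 to 0.21 and in the core from 0.39 to 0.18. let-7b-5p over let-7i-5p overlapped over rat means, with a difference of 0.59, and in peri, where it went from 0.11 to -0.14 without sham rat 2. Such ratios describe how far the values of a pair of probes moved apart, and do not show that either was unchanged. An exact permutation over rats cannot give a p below 0.1 with 3 against 3, so it could not decide on any of them.

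**Figure D4:**
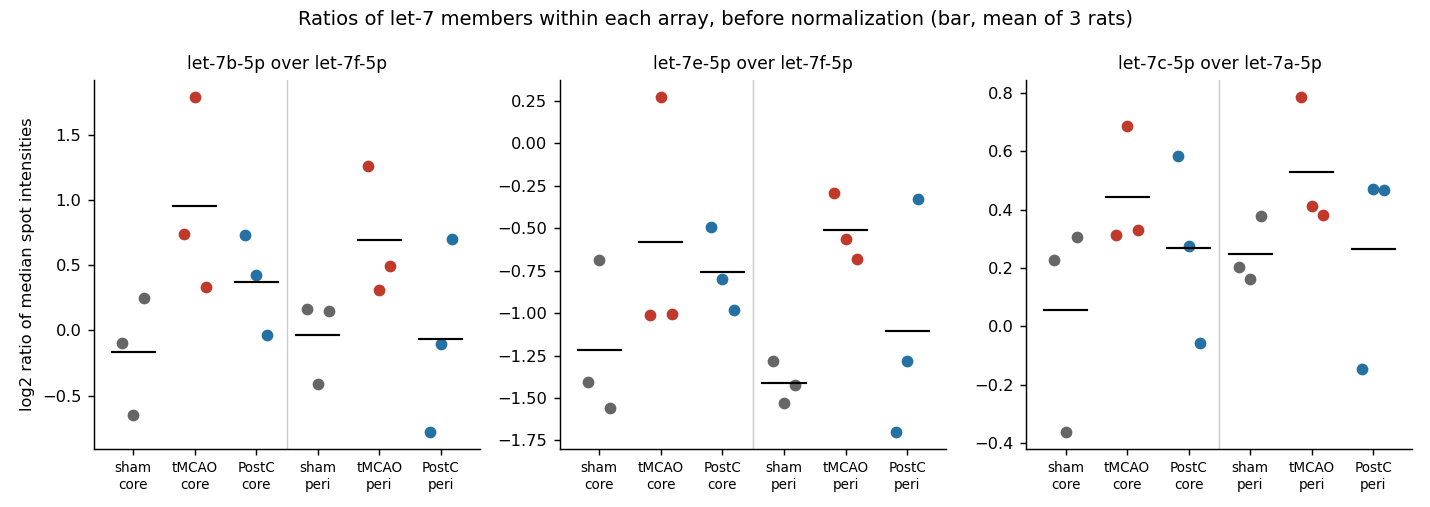
Log2 ratio of the median spot intensities of a pair of members on each array before normalization (y axis), by region and group, with 1 point per rat and a bar for the mean. tMCAO lies above sham without overlap in core and peri for let-7b-5p over let-7f-5p and, narrowly, for let-7c-5p over let-7a-5p, and in peri alone for let-7e-5p over let-7f-5p.

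Correlations among the members over the 18 arrays are given as a description. Besides the pair named above, let-7b-5p correlated with let-7d-5p at r = 0.81 and with let-7e-5p at r = 0.73. let-7a-5p, whose values include the dim spot, followed let-7c-5p at r = 0.81 and let-7e-5p at r = 0.19. let-7f-5p followed miR-98-5p at r = 0.82, let-7d-5p at r = 0.57 and let-7b-5p at r = 0.16. let-7i-5p correlated with no other member above r = 0.16. Of the 134 probes outside the list that were detected on all arrays, those whose log2 values were most like the mean of the 7 members detected everywhere were miR-3084a-3p (r = 0.79), miR-150-5p (r = 0.70), miR-320-3p (r = 0.66), miR-329-3p (r = 0.66) and miR-191a-5p (r = 0.66).

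The opposite arms of the same hairpins were mostly dim. Of 11 passenger-arm probes 10 were tested, and 1 was called in tMCAO against sham over rat means, where 11.8% of all probes were, let-7c-1-3p at 0.39 (SE 0.11, adjusted p = 0.0495), which was detected on 4 of 18 arrays. At an unadjusted p below 0.05 there were 5, against 31.4% of all probes. Those nearest to the threshold went both ways, let-7g-3p with 0.56 (SE 0.17, adjusted p = 0.0583, 6 arrays) and let-7f-1-3p with -1.14 (SE 0.36, adjusted p = 0.0608, 11 arrays), a pair named after their values were seen. With limma no passenger arm was called in the core or peri comparison, where 1 and 2 of them had an unadjusted p below 0.05, against 21.8% and 15.2% of all probes.

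The miRNAs made from the same transcripts as let-7 members were detected on all 18 arrays for 5 of 5 probes, and 0 were called with limma in tMCAO against sham over rat means, core or peri, where 11.8%, 3.38% and 0.564% of all probes were. At an unadjusted p below 0.05 the counts were 0, 0 and 1, against 31.4%, 21.8% and 15.2% of all probes, the 1 being miR-125b-5p in peri (0.53, SE 0.17, adjusted p = 0.178). Over rat means miR-99a-5p, the partner of let-7c, had -0.11 (SE 0.20), miR-99b-5p and miR-125a-5p, the partners of let-7e, had 0.14 (SE 0.18) and -0.25 (SE 0.16). miR-100-5p had -0.26 and miR-125b-5p 0.26. Their differences from the let-7 members were not tested. miR-202-3p, which shares bases 2 to 7 of the seed, was detected on 0 arrays.

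Markers of other cells moved in the same comparison. Of 5 leukocyte miRNAs 4 were tested, and miR-155-5p (core log2 fold change 1.56, adjusted p = 0.0318, detected on 3 arrays) and miR-150-5p (1.55, adjusted p = 0.0318) were higher in tMCAO core, where 1.69% of all probes were called higher. The summed deposited intensity of the 5 was 2231 to 3309 in sham core, 6035 to 9575 in tMCAO core and 4541 to 7247 in PostC core. Only miR-150-5p of the 5 was detected on all 18 arrays, so the sum is not a separate reading of 5 markers. miR-142-3p, a defining marker, was detected on 1 array and on none of the tMCAO core. Of the other tested leukocyte miRNAs, miR-223-3p had a core log2 fold change of 1.35 (adjusted p = 0.308) and miR-142-5p -0.46 (adjusted p = 0.401), the latter detected on 2 sham core and 0 tMCAO core arrays. Among red-cell miRNAs miR-486 was higher over rat means (1.39, adjusted p = 0.00951), miR-451-5p was not called (0.14, adjusted p = 0.809) and miR-144-3p was detected on 0 arrays. Over rat means 11.8% of all probes were called, and of the 6 neuron-linked miRNAs 3 were, all lower, miR-137-3p (-1.61, adjusted p = 0.0184), miR-9a-5p (-1.20, adjusted p = 0.0350) and miR-153-3p (-1.35, adjusted p = 0.0452), and the sum of the 6 was 77402 to 96026 in sham core and 59525 to 76086 in tMCAO core. The remaining neuron-linked miRNAs were not called, miR-128-3p with 0.44 (SE 0.14, adjusted p = 0.0668), miR-138-5p with 0.057 and miR-124-3p with -0.011. Of 2 oligodendrocyte and 2 endothelial probes 0 were called with limma over rat means, and 3 had an unadjusted p below 0.05, all lower, against 31.4% of all probes in either direction. Oligodendrocyte sums were 1690 to 10629 in sham core, with a median of 1905 and 1 array alone at the top, and 77.2 to 516 in tMCAO core. Endothelial sums were 8880 to 14038 in sham core and 3821 to 7543 in tMCAO core. The part of these cell types in the let-7 values was not tested.

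**Figure D5:**
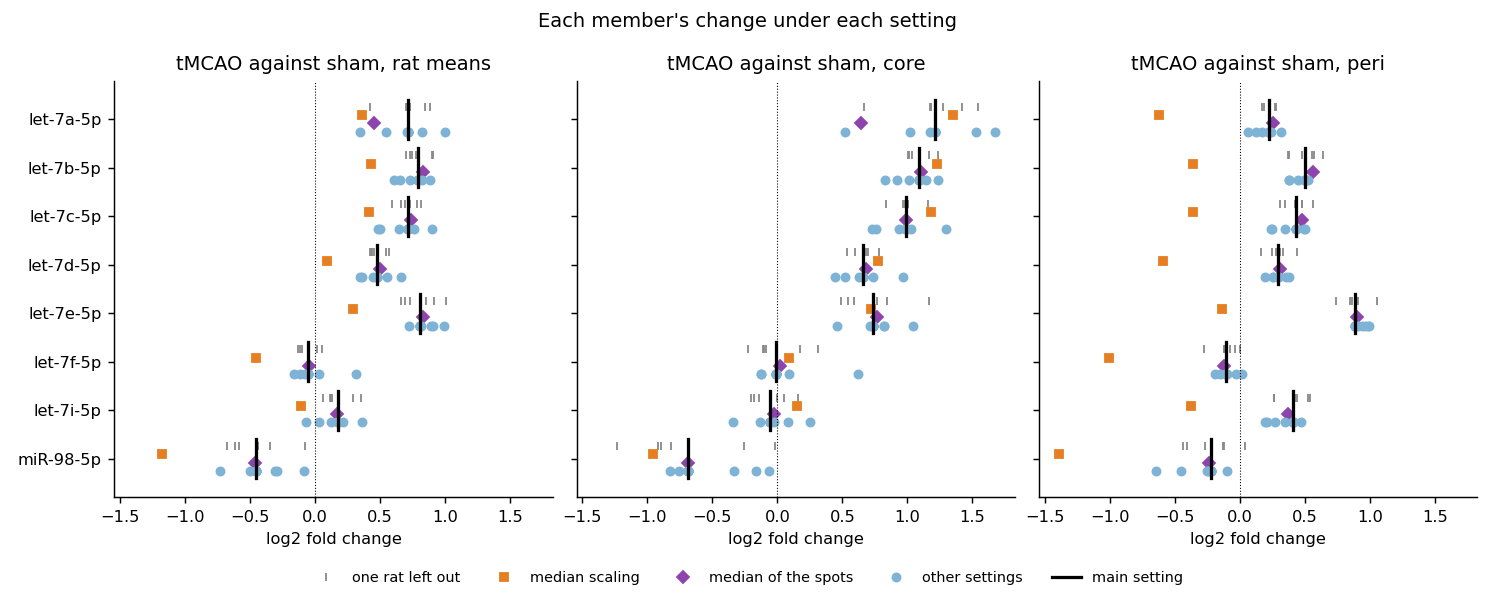
Log2 fold change of each member in tMCAO against sham (x axis) over rat means, core and peri arrays under each processing setting; black bars mark the values reported above, grey ticks the fits with one rat left out, orange squares the scaling of each array to one median, purple diamonds the median of the 4 spots and blue points the remaining settings. let-7b-5p stays between 0.43 and 0.90 over rat means and between 0.83 and 1.24 in the core, and the let-7a-5p core value drops to 0.64 with the median of the spots.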

How the data were processed

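Spot files held the density median of each spot, a background-uncorrected intensity deposited by the authors for single-colour Cy5 arrays (LC Sciences, probes from miRBase). The series table held intensity per probe, from which the authors had subtracted background before a LOWESS normalization, and served as an alternative. Arrays were corrected with normexp (offset 50) on all spots, normalized by cyclic loess with controls at weight 0, and the 4 log2 spots of a probe were averaged. limma 3.58.1 in R 4.3.3 (lmFit, eBayes with trend) was fitted to 532 probes over all 9 rats, and p-values were adjusted by Benjamini-Hochberg at 0.05 over all of them. Core and peri share a rat, so rat means or within-rat differences were tested. Rat numbers shared across groups did not pair the rats (correlations of deviations -0.45 to 0.44). All list members are named; from partner lists, those called or detected on all arrays, with exceptions named in the text. Members and lists were chosen with earlier results of these data known. The scripts were tested on simulated data. The number of arrays limits the precision, and no sequencing depth applies. Figures were drawn with Python 3.11.15 and matplotlib 3.10.9.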

Additional observations from a re-analysis of the deposited data

How the results depend on the processing

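With 3 rats a group the intervals are wide, and spots near the empty-spot level bound what miR-98-5p can show. The 2 calls over rat means in tMCAO against sham became 0 with plain background subtraction, the methods' t-test or the rat number as a replicate block, and 1 with the deposited table, cyclic loess by pairs of arrays (chosen after seeing the data) or median scaling, where the call was miR-98-5p, lower at -1.17 (adjusted p = 0.0488). They became 3 with quantile normalization, the GC correction or the rat as a random block. With 1 rat left out they ranged from 0 to 2. Under the replicate block let-7b-5p kept 0.79 with adjusted p = 0.0529, and the block changed no call in other comparisons except the core. The 1 core call became 0 with plain subtraction, quantile normalization, median scaling, the deposited table, no filter, no variance trend, the replicate block, the methods' t-test or loess by pairs, 2 with the GC correction, the filter of 18 arrays or only the groups compared, 3 with the rat as a random block, and 0 with any 1 rat left out. In PostC against tMCAO the 0 calls became 2 over rat means and 2 in the core with the random block, 2 in the core with the deposited table and 1 with the median of the spots, and over rat means they ranged from 0 to 1 with 1 rat left out. Core against peri in tMCAO went from 0 to 1 with the deposited table. In the 7 of 13 comparisons where single members were recomputed under every setting (tMCAO against sham, PostC against tMCAO over rat means and core, and core against peri in tMCAO), 53 of 1073 values changed sign, none of them past the threshold. PostC against sham was outside this count. The count of all probes called also moved, from 63 over rat means in tMCAO against sham to between 21 and 130 under other settings and between 8 and 96 with 1 rat left out. In the core it went from 18 to between 3 and 46, and between 0 and 13 with 1 rat left out, and in peri from 3 to between 0 and 128, and between 0 and 9. For PostC against tMCAO it went from 30 over rat means to between 3 and 39 and from 12 in the core to between 0 and 30, in peri from 0 to 59 without PostC rat 3, and for PostC against sham in the core from 0 to between 0 and 32. Of core against peri, the 5 in tMCAO ran between 0 and 10 and the 0 in PostC between 0 and 18. The cause of these changes was not tested.

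For tMCAO against sham, median scaling gave -0.11 for let-7i-5p over rat means, 0.089 for let-7f-5p and 0.15 for let-7i-5p in the core, and in peri -0.62 for let-7a-5p, -0.36 for let-7b-5p, -0.36 for let-7c-5p, -0.59 for let-7d-5p, -0.13 for let-7e-5p and -0.37 for let-7i-5p. Its core minus peri values were 0.85 for let-7e-5p, 0.52 for let-7i-5p and 0.43 for miR-98-5p, its PostC against tMCAO values 0.10 for let-7f-5p over rat means and 0.033 for miR-98-5p in the core, and its core against peri value of let-7i-5p in tMCAO 0.29. Median scaling moved the median of all probes to -0.21 over rat means, and loess by pairs moved it to -0.14 there and -0.21 in the core. Quantile normalization gave 0.030 for let-7f-5p over rat means, 0.089 for let-7f-5p and 0.079 for let-7i-5p in the core, and -0.0044 for miR-98-5p in PostC against tMCAO over rat means. The GC correction gave 0.32, 0.62 and 0.018 for let-7f-5p over rat means, core and peri, 0.25 for let-7i-5p in the core, and 0.096 for let-7e-5p and 0.035 for miR-98-5p in core minus peri. Plain subtraction gave -0.067 for let-7i-5p over rat means, 0.29 for miR-98-5p in core minus peri and -0.27 for miR-98-5p in PostC against tMCAO. The median of the spots gave 0.022 for let-7f-5p in the core. Loess by pairs gave -0.023 for let-7f-5p in core minus peri, 0.027 for let-7f-5p in PostC against tMCAO over rat means and 0.0042 for let-7i-5p in its core.

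With 1 rat left out, values of tMCAO against sham ran from -0.13 to 0.051 for let-7f-5p over rat means, from -0.22 to 0.31 for let-7f-5p and -0.21 to 0.16 for let-7i-5p in the core, and from -0.27 to 0.0030 for let-7f-5p and -0.43 to 0.043 for miR-98-5p in peri. Core minus peri ran from -0.41 to 0.32 for let-7e-5p, -0.19 to 0.58 for let-7f-5p and -1.11 to 0.17 for miR-98-5p. PostC against tMCAO ran from -0.25 to 0.097 for let-7f-5p over rat means, and in the core from -0.20 to 0.056 for let-7i-5p and -0.79 to 0.31 for miR-98-5p.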
